A study of Rattus norvegicus with 12 samples.

Results

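The trefoil factor family, Tff1, Tff2 and Tff3, was represented on the array by 3 probe sets of the 15866 tested, 1 for each gene, that is by 3 of the 10411 genes that a probe set names alone. The members were taken by name, as the probe sets whose annotated symbol is Tff1 (1387647_at), Tff2 (1368113_at) or Tff3 (1387218_at), and no member was lost to a filter. The family was chosen by the measured level of Tff2 in these same arrays (its low values in 1 group), so the values of Tff2 are given as a description without a test, whereas Tff1 and Tff3 came in by name and were tested.

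Trefoil factors are small secreted peptides held together by the disulphide bonds of their trefoil domains, and they are resistant to proteases. They are secreted with mucins at mucosal surfaces, where they contribute to the mucus layer and to the repair of the epithelium after injury. Tff1 and Tff2 are best known from the stomach, Tff1 from the surface mucous cells together with the mucin Muc5ac and Tff2 from the mucous neck and gland cells together with Muc6, while Tff3 is the trefoil peptide of intestinal goblet cells and is also known from the pancreatic islets.

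RNA of the whole pancreas of adult male Wistar rats was hybridized to 12 Affymetrix RAE230-A arrays, 3 in each of 4 groups. The healthy untreated (HU) and the diabetic untreated (DU) rats were kept for 5 to 6 weeks without tungstate, and diabetes had been induced in the diabetic groups with streptozotocin, a beta cell toxin, at 70 mg/kg. The healthy treated (HT) and the diabetic treated (DT) rats received sodium tungstate, a compound with insulin-like effects, in the drinking water. According to the sample labels it was given at 0.7 g/L in the first week and at 2 g/L for another 4 to 5 weeks, and the methods of the study give 2 mg/ml for 5 weeks. Equal parts of RNA from 3 rats were combined for an array, which makes 9 rats per group, and the p-values take account of differences between such pools only.

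The deposited values are log2 intensities, so a difference of 1 is a factor of 2 in brightness. The array medians lay between 6.63 and 6.70, the lowest probe set of an array between 3.44 and 3.51 and the highest between 14.45 and 14.56. Scanning took place on 6 days, with chips of 3 lots. DU and HU arrays never shared a scan day, DU1 shared a scan day with DT1 and DT2, and chip lot 3 held only HT3, DU3 and DT3. DU2 and DU3 were each scanned on a day of their own, and HU1 and HU2 on a day without another group. With scan day as a block, the DU level therefore rests on DU1 and the HU level on HU3. Little is read from a call that was lost under that block. The acinar marker carboxypeptidase A1 (Cpa1) had group means between 14.25 and 14.38, at the top of the array in all 4 groups. The duct keratin Krt19 lay between 7.27 and 7.60, and insulin 2 (Ins2) was at 13.34 in HU and at 8.63 in DU. In RNA from a whole organ, fewer cells of a type and less RNA per cell cannot be told apart.

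Tff2 lay near the top of the range of the array in the healthy pancreas and far lower in the untreated diabetic pancreas. Its log2 intensity was 13.36, 13.41 and 13.44 in HU1, HU2 and HU3, and 13.36, 13.47 and 13.41 in HT1, HT2 and HT3. In DU1, DU2 and DU3 it was 8.32, 7.70 and 8.12, and in DT1, DT2 and DT3 it was 13.09, 12.96 and 12.97. All 3 DU arrays stood far below the other 9, the DT arrays lay just under the healthy ones without overlap, and the HU and HT arrays overlapped.

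The mean of Tff2 over the 3 arrays of a group was 13.41 ± 0.04 (SD, n = 3) for HU and 13.41 ± 0.06 for HT. It was 8.05 ± 0.32 for DU and 13.01 ± 0.07 for DT. The difference between DU and HU was -5.36 on the log2 scale, the difference between DT and DU was 4.96, and the difference between HT and HU was 0.01. The 6 healthy arrays spanned only 0.11 log2 units, whereas the 3 DU arrays spanned 0.62, and the SD of the DU group was 7.37 times that of HU. The lowest HU array was 5.04 log2 units above the highest DU array, which is 32.9-fold, and the lowest DT array was 4.64 log2 units above it. Arrays that did not overlap were found for 29.4% of all probe sets in DU vs. HU and for 13.9% in DT vs. DU, in either direction, and nothing is read from that count for Tff2, whose values chose the family.

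**Figure D1:**
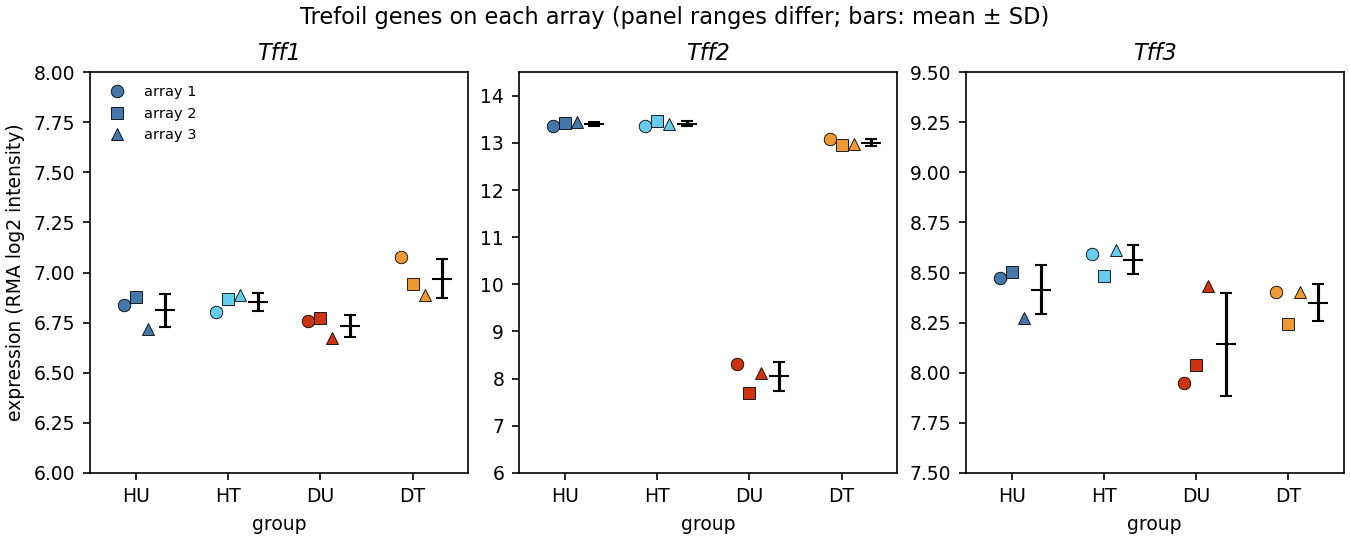
Log2 intensity of the Tff1, Tff2 and Tff3 probe sets in each of the 12 arrays by group, with points for arrays and a line with error bars for the group mean and SD (n = 3). The 3 DU arrays of Tff2 lie between 7.70 and 8.32 and all other arrays between 12.96 and 13.47, while no group of Tff1 or Tff3 stands apart in this way.

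On the linear scale, the mean Tff2 intensity of DU was 2.48% of that of HU, and the mean intensity of DT was 75.9% of it. The mean of DT had thus covered 92.6% of the distance from DU to HU on the log2 scale and 75.3% on the linear scale. The remaining difference between DT and HU was -0.40 on the log2 scale, or 1.32-fold, with a gap of 0.27 between the lowest HU and the highest DT array. Groups that did not overlap between DT and HU were found for 21.1% of all probe sets in either direction, and by the size of its fall from HU to DT Tff2 was in position 364 of 15866.

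The differences of Tff2 inside single batches are a description only, as they come from the arrays that chose the family. For DU vs. HU there was no shared scan day. On the scan day that DU1 shared with DT1 and DT2, the DT arrays were 4.71 log2 units above the DU array. In chip lot 3, which held 1 array of each diabetic group, DT3 was 4.85 above DU3. In chip lot 1 the DT arrays were 5.02 above the DU arrays and 0.42 below HU3. In chip lot 2, which held the HT1, HT2, HU1 and HU2 arrays, HT was 0.03 above HU.

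Few probe sets of the array had this shape. For Tff2 the positions and shares given here are a description only, as its values chose the family. A fall of over 2 log2 units from HU to DU was seen in 0.0756% of all probe sets, and a rise of that size from DU to DT in 0.0315%. By the size of the fall from HU to DU, Tff2 was in position 2 of 15866, behind the amylase gene Amy1, and by the size of the rise from DU to DT it was in position 2, behind the amylase gene Amy2a3. At a threshold chosen after the values were seen, 4 probe sets were more than 2 log2 units lower in DU than in HU and more than 2 log2 units higher in DT than in DU. These were Tff2, Amy2a3, Amy1 and a probe set shared by Amy2a3 and Amy1, and the same 4 were left at a threshold of 3 log2 units. At 1 log2 unit there were 13, which included Ins2, the aquaporin Aqp8, the ER quality control protein Sel1l and the mucus protein Fcgbp.

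**Figure D2:**
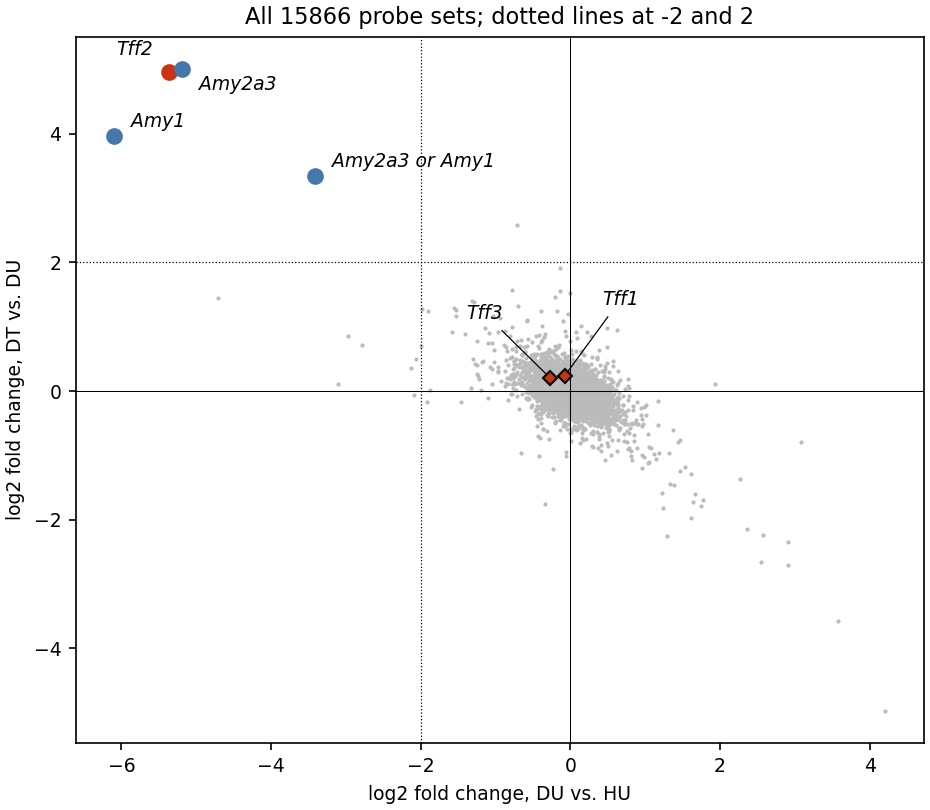
Log2 fold change of each of the 15866 probe sets in DU vs. HU (horizontal axis) and in DT vs. DU (vertical axis), with the trefoil factors and the other probe sets beyond 2 log2 units in both labelled. Tff2 at -5.36 and 4.96 lies with 3 amylase probe sets, while Tff1 and Tff3 lie in the cloud of all probe sets; both axes share the DU arrays.

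Pancreatic amylase digests starch and is made by the acinar cells. The Amy2a3 probe set was at 13.20, 13.10 and 13.07 in the HU arrays, 8.59, 6.45 and 8.78 in the DU arrays and 13.17, 12.98 and 12.70 in the DT arrays. DU2 was the lowest of the DU arrays for Amy2a3 and also for Tff2. The Amy1 probe set was at 10.36, 10.47 and 10.72 in HU, at 4.45, 4.41 and 4.41 in DU and at 8.39, 8.44 and 8.35 in DT. In DU the Amy1 values were close to the 5th percentile of the arrays, which was 4.30 to 4.31 in that group, and in DT they stayed below every HU array. Amy2a3 fell by 5.18 in DU vs. HU (adjusted p = 1.04e-05 by limma) and rose by 5.01 in DT vs. DU (adjusted p = 2.02e-05 by limma). Unlike Tff2 and Amy2a3, Amy1 was 2.12 log2 units lower in DT than in HU (adjusted p = 0.00116 by limma, and 0.175 when scan day was blocked). The amylase genes are near-identical copies whose probe sets may share signal, so the split between Amy1 and Amy2a3 is uncertain.

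Tff1 lay in a narrow band. It was at 6.84, 6.88 and 6.72 in HU1, HU2 and HU3 and at 6.80, 6.87 and 6.89 in the HT arrays. It was at 6.76, 6.77 and 6.67 in the DU arrays and at 7.08, 6.94 and 6.89 in the DT arrays. The lowest DT array was above every DU array and above every HU array, in the latter case by less than the SD of either group, while it overlapped the HT group. Arrays that did not overlap in the upward direction were found for 7.58% of all probe sets in DT vs. DU and for 9.62% in DT vs. HU. The SD of Tff1 over the 12 arrays was 0.11, smaller than that of most probe sets of the array.

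The mean of Tff1 was 6.81 ± 0.08 (SD, n = 3) for HU, 6.85 ± 0.04 for HT, 6.73 ± 0.05 for DU and 6.97 ± 0.10 for DT. The log2 fold change in DU vs. HU was -0.08 (SE 0.08), with an adjusted p of 0.625 by limma and a 95% confidence interval from -0.25 to 0.09. In DT vs. DU it was 0.23 (SE 0.08), or 1.18-fold, with an interval from 0.06 to 0.40 that is not adjusted for the number of probe sets. With an adjusted p of 0.284 by limma this difference did not pass the test. In DT vs. HU the log2 fold change was 0.16, with an adjusted p of 0.339 by limma.

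Tff3 had an SD of 0.21 over the 12 arrays, larger than that of most probe sets of the array. It was at 8.47, 8.50 and 8.27 in the HU arrays and at 8.59, 8.48 and 8.61 in the HT arrays. It was at 7.95, 8.04 and 8.43 in the DU arrays and at 8.40, 8.24 and 8.40 in the DT arrays. DU1 and DU2 were the lowest of the 12 arrays, whereas DU3 lay among the HU arrays, so that the DU group overlapped the HU and DT groups, and all 3 DU arrays lay below the HT arrays. Tff1 was also lower in every DU array than in every HT array, and DU and HT arrays did not overlap for 22.2% of all probe sets, in either direction. The mean was 8.42 ± 0.12 (SD, n = 3) for HU, 8.56 ± 0.07 for HT, 8.14 ± 0.26 for DU and 8.35 ± 0.09 for DT.

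The log2 fold change of Tff3 in DU vs. HU was -0.27 (SE 0.12), or 1.21-fold lower, with an adjusted p of 0.210 by limma and a 95% confidence interval from -0.53 to -0.02. A single array, DU3, decided this call. Without that array the log2 fold change was -0.42 with an adjusted p of 0.0453 by limma. Without the 3 arrays of chip lot 3, to which DU3 belongs, it was -0.42 with an adjusted p of 0.0404 by limma. Both fits leave out DU3. Inside chip lot 1 the difference of DU1 and DU2 from HU3 was -0.28. In DT vs. DU the log2 fold change was 0.21 (SE 0.12) with an adjusted p of 0.624, and inside chip lots it was 0.33 in lot 1 and -0.03 in lot 3. In DT vs. HU it was -0.07 with an adjusted p of 0.809 by limma.

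Of the 2 members tested with limma, Tff1 and Tff3, 0 passed an adjusted p under 0.05 in any comparison, against 3.2% of all probe sets for DU vs. HU, 1.12% for DT vs. DU, 1.32% for DT vs. HU and 0.0063% for HT vs. HU. At an unadjusted p under 0.05 there was 1 in DU vs. HU, Tff3, and 1 in DT vs. DU, Tff1, where 20.2% and 9.89% of all probe sets reached that level. By the criterion of the study's methods, a B-statistic above 0, 0 of the 2 were selected in any comparison, where it selected 1.82% of all probe sets for DU vs. HU, 1.05% for DT vs. DU, 1.18% for DT vs. HU, 0% for HT vs. HU and 0.58% for the interaction.

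In the healthy animals the values of the 3 members differed little between HT and HU. The log2 fold change in HT vs. HU was 0.04 for Tff1 (adjusted p = 0.941 by limma) and 0.15 for Tff3 (adjusted p = 0.879 by limma), with 95% confidence intervals from -0.13 to 0.21 and from -0.10 to 0.40. The interaction, that is the DT vs. DU difference minus the HT vs. HU difference, was 0.19 (SE 0.11, adjusted p = 0.680 by limma) for Tff1 and 0.06 (SE 0.16, adjusted p = 0.953 by limma) for Tff3, against 0.422% of all probe sets called. For Tff2 the same difference of differences was 4.95.

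Across the 12 arrays the 3 members did not follow a common profile. Pearson's r was 0.56 between Tff1 and Tff2, 0.27 between Tff1 and Tff3 and 0.68 between Tff2 and Tff3, and Spearman's rho was 0.20, 0.24 and 0.60. These values describe 4 groups of 3 arrays rather than 12 independent samples, and those with Tff2 are set mainly by the distance of the DU arrays.

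The trefoil genes lie side by side on chromosome 20 of the rat assembly GRCr8, in the order Tff3, Tff2, Tff1, between the sterol transporter gene Abcg1 and the protease gene Tmprss3, which was not matched to a probe set here. Tff2 is therefore flanked on both sides by members that differed by at most 0.27 log2 units between DU and HU. The 5 nearest measured genes on either side of the cluster were Abcg1, Glp1r, Glo1, Btbd9 and Zfand3 and, past Tff1, Rsph1, Slc37a1, Pde9a, Wdr4 and Ndufv3. Their log2 fold changes lay between -0.28 and 0.17 in DU vs. HU and between -0.10 and 0.15 in DT vs. DU. In limma, 0 of the 10 passed the adjusted p in any comparison. Of all probe sets 3.2% passed it for DU vs. HU and 1.12% for DT vs. DU. At an unadjusted p under 0.05 there was 1 neighbour, in DU vs. HU, where 20.2% of all probe sets reached that level.

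**Figure D3:**
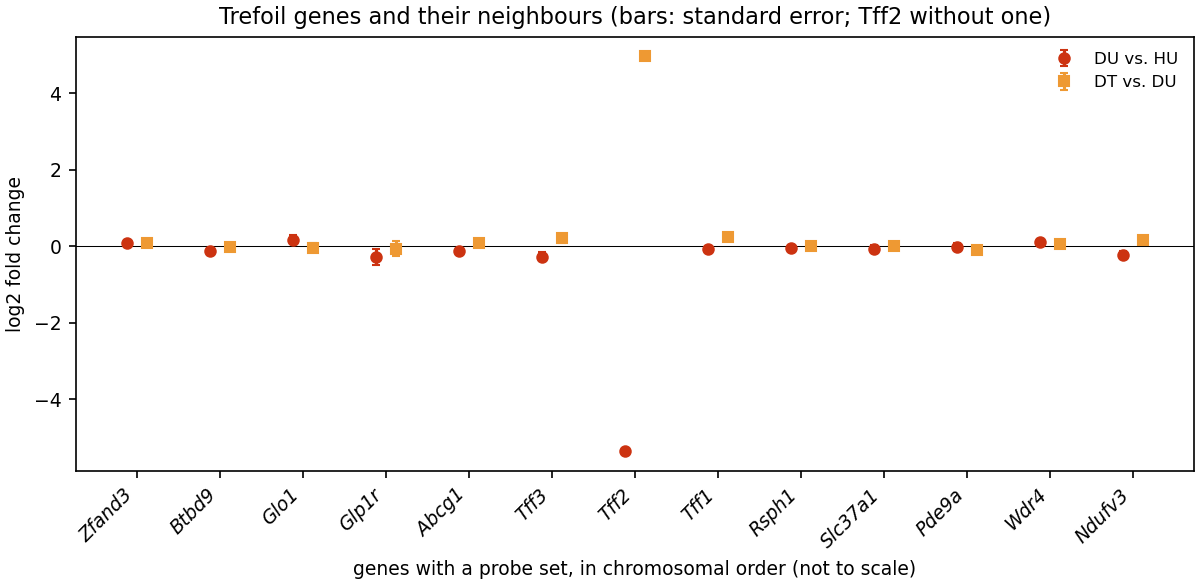
Log2 fold change for DU vs. HU (circles) and DT vs. DU (squares) of the trefoil genes and the 5 nearest measured genes on either side, in the gene order of chromosome 20 (GRCr8, not to scale), with bars for the standard error, which is not given for Tff2. Tff2 at -5.36 and 4.96 stands between genes whose values lie between -0.28 and 0.23.

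Trefoil peptides are stored and secreted with mucins, and the mucins and mucus proteins were therefore described next to them. Of 26 listed genes 14 were measured, and in DU vs. HU 0 rose and 1 fell, against 1.47% and 1.73% of all probe sets. In DT vs. DU 1 rose and 0 fell, against 0.655% and 0.46%. The list had a median log2 fold change of 0.07 and 0.09 in these comparisons, and that of all probe sets was -0.02 and 0.0045. Muc6 was not among the 14 measured genes. In DU vs. HU the log2 fold change was -0.41 for Muc5ac (adjusted p = 0.116 by limma) and 0.21 for Muc2 (adjusted p = 0.267 by limma). In DT vs. DU that of Muc5ac was 0.17 (adjusted p = 0.784 by limma).

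The gene called in both comparisons was Fcgbp, a mucus protein that binds mucins and trefoil factors. It was at 8.43, 8.46 and 8.57 in HU, at 7.05, 6.88 and 7.67 in DU and at 8.78, 8.44 and 8.55 in DT, so that all DU arrays were below all others. It fell by 1.28 on the log2 scale (SE 0.17, adjusted p = 0.000938 by limma) in DU vs. HU and rose by 1.39 (SE 0.17, adjusted p = 0.000633 by limma) in DT vs. DU, and both calls were kept under all 21 alternatives run. Its interaction was 1.33 (adjusted p = 0.0305 by limma), and this call was lost in 8 of 20 alternatives, each with 1 array left out. Without HU1, HU2, HU3, HT1, HT2, DU1, DU2 or DT1 the adjusted p of limma lay between 0.0671 and 0.0997.

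The enzymes of mucin-type O-glycosylation, which attach and extend the sugar chains of mucins, numbered 20 measured of 31. In DU vs. HU 0 passed the adjusted p in limma (3.2% of all probe sets) and 6 passed an unadjusted p under 0.05 (20.2% of all probe sets), and the median log2 fold change was -0.04. In DT vs. DU C1galt1c1, the chaperone of the core O-glycan synthase, was the 1 gene that rose, by 0.80 on the log2 scale (adjusted p = 0.00602 by limma, and 0.212 when scan day was blocked). Of all probe sets 0.655% were called higher in DT vs. DU. Genes for receptors and signalling proteins tied to trefoil peptides numbered 21 measured of 24. With limma 0 of them passed in DU vs. HU or in DT vs. DU, against 3.2% and 1.12% of all probe sets. At an unadjusted p under 0.05, 4 and 3 passed, against 20.2% and 9.89% of all probe sets. The growth factor Egf had log2 fold changes of -0.67 (adjusted p = 0.142 by limma) and 0.71 (adjusted p = 0.293 by limma).

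Of 26 transcription factors listed for trefoil promoters from general knowledge 22 were measured. In DU vs. HU 1 fell (1.73% of all probe sets), Foxa2, a factor of foregut epithelium, by 0.40 on the log2 scale (adjusted p = 0.0408 by limma), and in DT vs. DU 1 rose (0.655%), the immediate early factor Egr1, by 0.83 (adjusted p = 0.0432 by limma). Both calls were weak, as the Foxa2 call was lost in 14 of 21 alternatives, with an adjusted p between 0.0512 and 0.479, and the Egr1 call in 15 of 21, with an adjusted p between 0.0506 and 0.454. Both were lost when scan day or chip lot was blocked and without the arrays of chip lot 3, and Foxa2 also by the B-statistic. The medians of the list were -0.02 and 0.06.

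**Figure D4:**
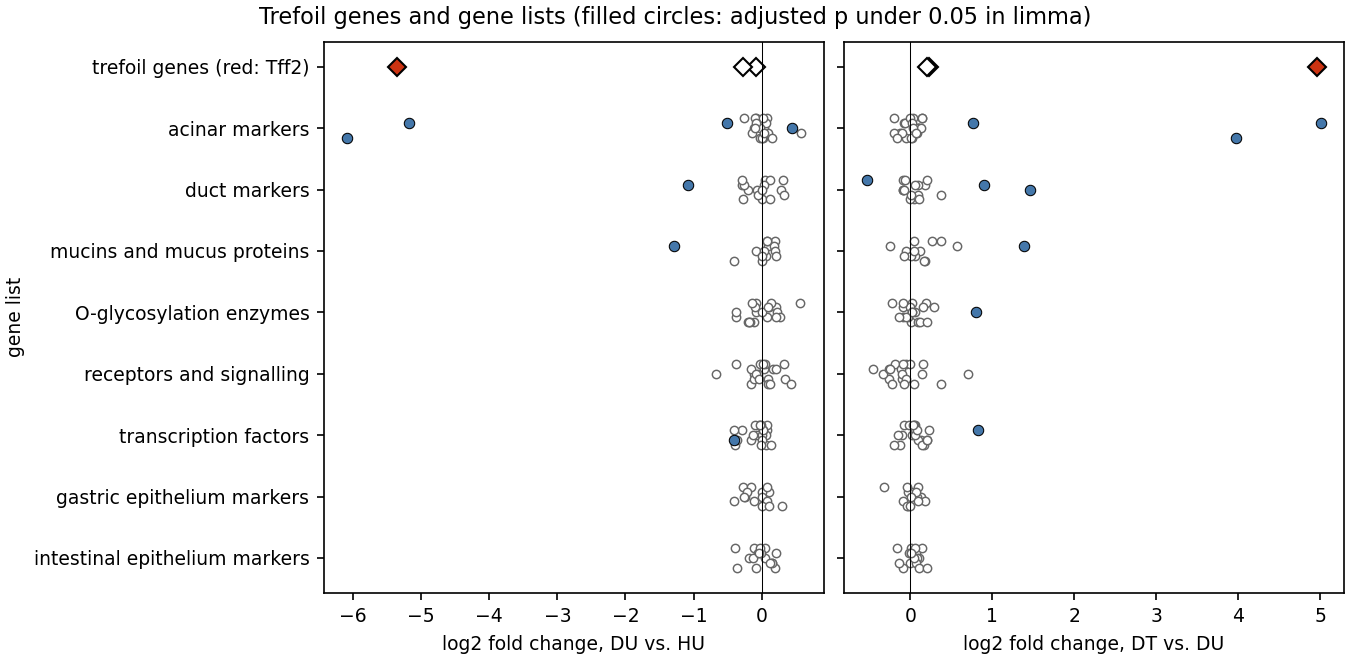
Log2 fold change of the trefoil genes (diamonds) and of each measured gene of 8 lists (circles), with DU vs. HU on the left and DT vs. DU on the right, and with filled circles for genes that passed an adjusted p under 0.05 in limma. Most circles lie close to 0, and the filled circles farthest from it are the amylases, at -6.09 and -5.18 on the left and 3.97 and 5.01 on the right.

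Because Tff2 is best known from the stomach, which lies next to the pancreas, markers of other epithelia were described in the same arrays. Of the gastric epithelium markers 15 of 20 were measured. In limma 0 of them passed in DU vs. HU or in DT vs. DU, against 3.2% and 1.12% of all probe sets. At an unadjusted p under 0.05 there were 3 in DU vs. HU but 0 for DT vs. DU, against 20.2% and 9.89% of all probe sets, and the medians were 0.0005 and 0.0097. Their summed intensity was 1781 to 1863 for HU, 1740 to 1902 for HT, 1692 to 1735 for DU and 1617 to 1888 for DT, so that the DU arrays were below the HU arrays and overlapped the DT arrays. Of the defining stomach markers, the proton pump subunit Atp4a had group means between 6.83 and 7.04, pepsinogen C (Pgc) between 6.56 and 6.80 and gastrokine 1 (Gkn1) between 5.24 and 5.32. Atp4a and Pgc thus lay near the array medians of 6.63 to 6.70, and Gkn1 lay below them. No detection limit was set, so these levels do not show whether the 3 genes were expressed. Their part in the Tff2 values was not tested.

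The intestinal epithelium markers, 17 measured of 21, had 0 genes that passed in limma in DU vs. HU or DT vs. DU (3.2% and 1.12% of all probe sets). They had 2 and 0 at an unadjusted p under 0.05 (20.2% and 9.89% of all probe sets), and medians of -0.03 and 0.05. Their summed intensity was 1791 to 1914 in HU, 1702 to 1937 in DU and 1654 to 2096 in DT. The enterocyte protein Fabp2 was between 5.74 and 5.90 in all groups.

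Of the acinar markers 25 of 34 were measured. In DU vs. HU 3 fell, Amy1, Amy2a3 and the zymogen granule protein Cuzd1, and 1 rose, the trypsinogen Prss2, by 0.45 on the log2 scale (adjusted p = 0.0318 by limma), against 1.73% of all probe sets lower and 1.47% higher. By the B-statistic above 0 the Prss2 call was lost. The 21 that did not pass lay between -0.26 and 0.57. In DT vs. DU the same 3 that had fallen rose, against 0.655% of all probe sets, and the other 22 lay between -0.20 and 0.14. Cuzd1 fell by 0.51 (adjusted p = 0.00103 by limma, and 0.504 when scan day was blocked) and then rose by 0.76 (adjusted p = 3.54e-05 by limma). The mean log2 level of the acinar markers without the amylases was 12.95 to 13.01 in HU, 12.93 to 13.02 in DU and 12.95 to 13.05 in DT. Many of these probe sets lie close to the top of the array, which leaves little room for a rise.

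Of the duct markers, 18 measured of 22, the secretin receptor Sctr fell by 1.09 in DU vs. HU (adjusted p = 0.00108 by limma) and rose by 0.90 in DT vs. DU (adjusted p = 0.0069 by limma). The tetraspanin Tspan8 rose by 1.46 in DT vs. DU (adjusted p = 3.18e-05 by limma), the secreted phosphoprotein Spp1 fell by 0.53, and the medians of the list were -0.02 and 0.05. The Spp1 call was lost in 7 of 21 alternatives. In DU vs. HU 1 duct marker was called lower, against 1.73% of all probe sets. In DT vs. DU 2 were called higher and 1 lower, against 0.655% and 0.46%. Of the islet markers, 20 measured of 25, 1 rose and 6 fell in DU vs. HU and 1 rose in DT vs. DU, with medians of -0.28 and 0.05. The shares of all probe sets were 1.47% higher and 1.73% lower for DU vs. HU and 0.655% higher for DT vs. DU. The 1 that rose in DT vs. DU was Ins2, by 1.45 (adjusted p = 0.0387 by limma, lost in 13 of 21 alternatives), and its log2 fold change in DT vs. HU was -3.25.

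Of the leukocyte markers 23 of 27 were measured, of the stellate and fibroblast markers 18 of 18 and of the adipocyte markers 9 of 12. In limma 0 of each passed in DU vs. HU or in DT vs. DU, where 3.2% and 1.12% of all probe sets did. In DT vs. HU 3 stellate and fibroblast genes were called lower, where 1.32% of all probe sets were called in either direction. The median of that list in DT vs. HU was -0.44, and 0 leukocyte or adipocyte genes were called. Of the 3 calls, that of Col3a1 was lost in 7 of 21 alternatives and that of Postn in 11 of 20. At an unadjusted p under 0.05, 2 leukocyte, 2 stellate and 2 adipocyte genes passed in DU vs. HU, where 20.2% of all probe sets did. When DT was compared with DU, 3, 6 and 2 passed, all of them lower, where 9.89% of all probe sets did. The medians in DU vs. HU were -0.06, -0.07 and -0.14, and in DT vs. DU they were -0.14, -0.35 and -0.22. The summed intensity of the leukocyte markers ranged from 5526 to 10791 in the HU arrays and from 6063 to 8647 in DU. The part of these cells in the Tff2 values was not tested. In HT vs. HU 0 genes of any of the 12 lists passed in limma, where 0.0063% of all probe sets did.

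The genes whose profile over the 12 arrays was most like that of Tff2, among 120 probe sets with a single symbol and a range of at least 1 log2 unit over the group means, were Amy2a3 (r = 0.98), the cytochrome P450 gene Cyp2d2 (0.97), Sel1l (0.96), Amy1 (0.96) and the ribonuclease Ang (0.95). The most opposed were the carbonyl reductase Cbr1 (-0.99), the coenzyme A synthesis enzyme Ppcdc (-0.99), the fatty acid oxidation enzymes Acadl (-0.98) and Decr1 (-0.98) and the thioredoxin-interacting protein Txnip (-0.98). These correlations are set by the DU arrays. Over the 9 arrays without DU, r with Tff2 was 0.87 for Amy1, 0.40 for Amy2a3, -0.27 for Cyp2d2 and -0.83 for Cbr1. By Spearman's rho, 1 of the 5 most alike and 2 of the 5 most opposed genes were the same.

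**Figure D5:**
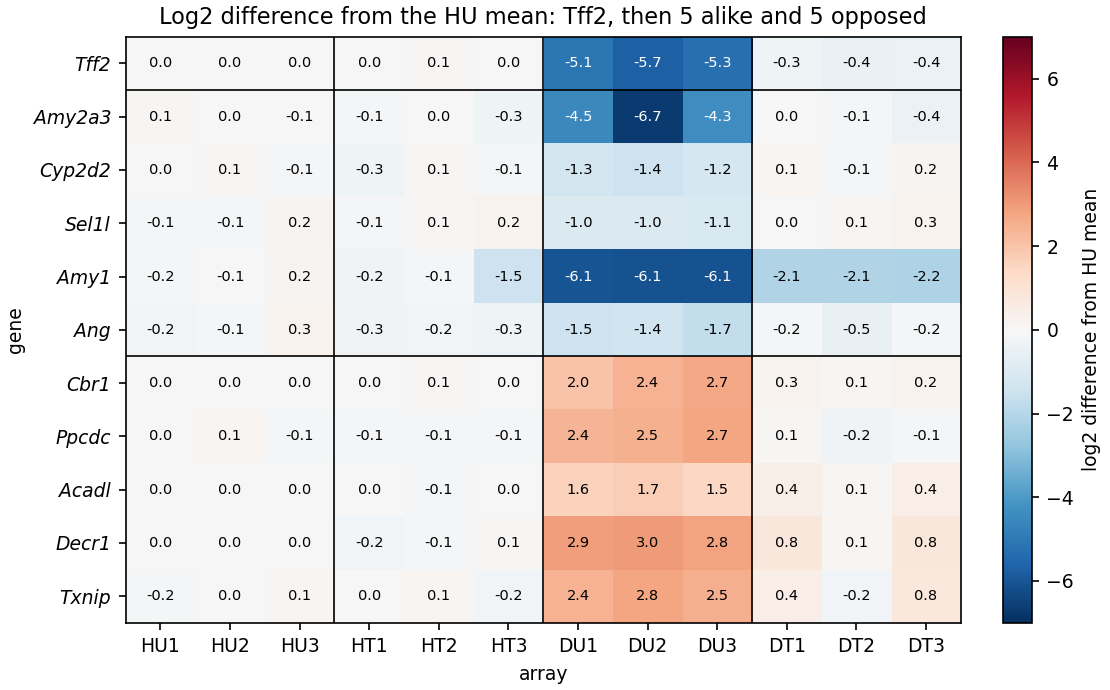
Log2 intensity relative to the HU mean in each of the 12 arrays for Tff2 and the 5 genes most like it and the 5 most opposed to it by Pearson's r. The DU arrays carry the contrast in every row, and the DT arrays of Amy1 stay below HU while those of Tff2 lie close to it.

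For Tff1 and Tff3 the choice was among 12782 probe sets with no rule on the range, so their correlations are not comparable with those of Tff2. The 5 genes most like Tff1 were Tsr3, C19h19orf53, Sqor, Prodh and Slc37a4, with r between 0.83 and 0.86, and the 5 most opposed were Lox, Ifitm1, Elk3, Gm2a and Ifitm3, with r between -0.89 and -0.87. For Tff3 the 5 most alike were Sema6a, Adam32, Defb22, Abcb4 and Rbfa, all with r of 0.91, and the 5 most opposed were Gpatch8, H2az1, Eps15, Prkag1 and Cggbp1, with r between -0.95 and -0.90. By Spearman's rho at most 2 of each 5 were the same, and 0 of the 5 most opposed to Tff3.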

How the data were processed

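The authors extracted RNA from whole pancreas, pooled 3 rats per array and made the deposited log2 intensities by RMA in the affy package (version not given in the sources used here), which corrects the background, brings all arrays to one distribution and combines the probes of a set. Precision is limited by the number of arrays, as there are no read counts. Scan day and chip lot were read from the array records.

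The log2 values were used as deposited. Leaving out 57 controls of 15923 probe sets gave 15866 for testing, of which 12783 had 1 symbol in the platform annotation, 312 several and 2771 none. Gene IDs of 12748 were found in the RefSeq table of GRCr8. A mean per group was fitted with limma 3.58.1 in R 4.3.3, with empirical Bayes moderation as in the study's methods, and p-values were adjusted by the Benjamini-Hochberg method over all probe sets within each contrast. The methods' criterion, a B-statistic above 0 at a prior proportion of 0.01, was an alternative. The fit was tested on simulated data. Replicate numbers are those of the titles.

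The members and the 12 gene lists were chosen with earlier results of these data known. Of the listed genes 221 were matched by symbol, 1 by gene ID, and 64 had no probe set. A gene with several probe sets was represented by the one with the highest mean. Named genes were the members, the 5 most and least correlated with each and the 5 nearest measured neighbours on either side. Up to 3 genes per list with the smallest adjusted p in DU vs. HU or DT vs. DU and the defining markers were also named. Vil1 and Sis, also chosen as markers, were not matched. Alternatives were centring on the median, quantile normalization, no dim probe sets, only the 6 arrays compared, trend and robust variance, blocks for scan day, chip lot or replicate number, the probe set with the lowest mean, Spearman's rho, and leaving out each array. Leaving out chip lot 3 was added after seeing the data. Quantitative PCR and histology were not analysed here.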

Additional observations from a re-analysis of the deposited data

Results flagged for a closer look

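Of 46 named genes tested, the interaction of 6 passed an adjusted p under 0.05 in limma (0.422% of all probe sets passed). These 6 are list genes, named for a small adjusted p in DU vs. HU or DT vs. DU. The interaction shares the DU arrays with both, so the count is not comparable with that share. Genes named only for their correlation with Tff2 were not among the 46, such as Cbr1 with an interaction of -2.16. The interaction was 5.15 on the log2 scale for Amy2a3 (SE 0.60, adjusted p = 0.00107) and 4.58 for Amy1 (SE 0.35, adjusted p = 2.01e-05). It was 1.55 for Tspan8 (SE 0.18, adjusted p = 0.0011), 1.33 for Fcgbp (SE 0.24, adjusted p = 0.0305), 1.12 for C1galt1c1 (SE 0.18, adjusted p = 0.0153) and 0.77 for Cuzd1 (SE 0.10, adjusted p = 0.00175). In HT vs. HU the log2 fold changes of the called genes lay between -0.61 (Amy1) and 0.06 (Fcgbp). Amy1 was at 10.27, 10.38 and 9.07 in HT1, HT2 and HT3, so its difference came mainly from HT3. When scan day was blocked the adjusted p in limma was 0.123 for Cuzd1 and 0.0518 for Tspan8, and the C1galt1c1 interaction was lost in 4 of 20 alternatives, that block among them, with an adjusted p between 0.0575 and 0.343. Groups of 3 arrays were not searched for outlying arrays.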

How the results depend on the processing

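The difference of Tff2 kept its direction in DU vs. HU, DT vs. DU and DT vs. HU under all alternatives run. For Tff2 this only describes the arrays that chose the family. Tff1 passed the adjusted p under none of the alternatives. With the scan day as a block, Tff2 was at 4.71 in DT vs. DU, -0.47 in DT vs. HU and 4.74 in the interaction, and Tff3 in DT vs. HU turned to 0.053. Quantile normalization gave 0.077 for Tff2 in HT vs. HU. Leaving out 1 array at a time, Tff2 ranged from -5.49 to -5.18 in DU vs. HU, from 4.79 to 5.09 in DT vs. DU, from 4.78 to 5.09 in the interaction and from -0.02 to 0.03 in HT vs. HU. Tff1 in HT vs. HU ranged from -0.0048 (without HU3) to 0.074, and the Tff3 interaction from -0.037 (without DU1) to 0.21. Tff3 in DU vs. HU ranged from -0.42 to -0.18, with the adjusted p by limma between 0.0453 (without DU3) and 0.524, and it was -0.42 without the chip lot 3 arrays. The cause of these shifts was not tested. The number of genes called in a list moved most with the scan day as a block (20 of 120 counts) and without the chip lot 3 arrays (18 of 120), which includes 6 and 7 stellate and fibroblast genes lower in DT vs. DU. The interaction could not be fitted with only the 6 arrays compared.

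Arrays with the same replicate number did not deviate together, with r between -0.29 and 0.31 over 18 pairs (median 0.03), against a median of -0.02 over the other 36 pairs. With the replicate number as a block, Tff3 was at -0.27 in DU vs. HU (adjusted p = 0.218 by limma) and Tff1 at 0.23 in DT vs. DU (adjusted p = 0.307 by limma), and no call of Tff1 or Tff3 changed.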
